A study of Homo sapiens with 3 samples.

Results

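The desmosome was examined through 10 genes, 6 for its cadherins (*DSG1*, *DSG2*, *DSG3*, *DSC1*, *DSC2* and *DSC3*) and 4 for its cytoplasmic plaque (*DSP*, *JUP*, *PKP2* and *PKP3*). The members were all genes of this list with a probe set annotated to that gene alone, and each was found, with 14 probe sets in all out of 22283 on the array and 10 genes out of 11963. The array was the Affymetrix HG-U133A, which reads a gene with a set of short oligonucleotide probes, and the values are log2 expression levels computed by the authors with RMA. The samples were 3 independent culture batches of the iHCE line, corneal epithelial cells immortalized with SV40 and therefore expressing the viral large T antigen. All 3 were grown at passages 22 to 23 in DMEM/Ham's F12 with serum, insulin, cholera toxin, EGF and DMSO, first submerged on collagen-coated filters and then, with ascorbic acid added, at the air-liquid interface. Their electrical resistances were 489, 439 and 468 Ω x cm2 in cultures 1, 2 and 3, and no other treatment or genotype was part of the series. The arrays of native corneal epithelium were not analysed here, so no gene is compared between cells and tissue.

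Desmosomes are spot-like junctions that fasten the keratin filaments of neighboring epithelial cells to each other. Desmogleins and desmocollins, both cadherins, reach across the gap between the cells. Inside the cell their tails bind plakoglobin (*JUP*) and plakophilins, which hold desmoplakin (*DSP*), and desmoplakin binds the keratin filaments. *DSG2*, *DSC2* and *PKP2* are the forms that simple epithelia and heart muscle use, whereas *DSG1*, *DSG3*, *DSC1* and *DSC3* belong to stratified epithelia such as the epidermis and the surface of the eye. *DSP*, *JUP* and *PKP3* serve desmosomes of both kinds and are called shared plaque genes below.

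A background threshold was set for each array at the 95th percentile of 59 genes that mark organs such as the liver, the pancreas and skeletal muscle, and lay at 7.09, 6.91 and 7.22 in cultures 1, 2 and 3. To be called above background, a gene had to pass the threshold with its brightest probe set on all 3 arrays. Pearson's r across probe sets was 0.994 between cultures 2 and 3 and 0.988 and 0.987 between culture 1 and these, so the array of culture 1 stood somewhat apart. On the control probe sets for RNA integrity, the 3′ end of *GAPDH* exceeded the 5′ end by 1.64, 1.34 and 1.28 log2 units in cultures 1, 2 and 3 and that of *ACTB* by 2.99 to 3.25. Whether a loss of signal toward the 5′ end lowered any member probe set was not tested. The epithelial markers *EPCAM*, *CDH1*, *KRT8*, *KRT18*, *KRT19* and *ELF3* were above background in 6 of 6 cases. Of 6 markers of corneal epithelium 1 was above background, the pentose phosphate gene *TKT* at 10.62, 10.67 and 10.64, while *KRT3*, *KRT12*, *ALDH3A1* and *CLU* exceeded the threshold on no array and *PAX6* exceeded it on 1. Of the markers of other cells, 0 of 6 for keratocytes, 0 of 4 each for melanocytes, endothelium and heart muscle, and 1 of 5 for immune cells (*CD74*) were above background. The heart markers *MYH7* and *ACTN2* and the immune markers *CD3E* and *CD79A* are also among the genes that set the threshold. Their place below it is therefore no evidence about these cells. *EPCAM*, *KRT3*, *KRT12*, *PAX6*, *ALDH3A1* and *CLU* are among the genes of largest ratio that the study listed from these arrays. The levels of these genes are not independent evidence either.

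The iHCE cultures expressed the shared plaque genes and a single desmosomal cadherin above background. Of the 10 members 4 were above background, *DSG2*, *DSP*, *JUP* and *PKP3*, beside 44.5% of all 11963 genes, so the members as a whole lay near the share of all genes. The calls were spread unequally over the classes, with 1 of the 3 genes of simple epithelia, 0 of the 4 genes of stratified epithelia and 3 of the 3 shared plaque genes. Counted by probe set, 4 of the 14 were above background on every array, 1 on a single array and 9 on none, beside 34.6% of all 22215 probe sets other than controls that were above on every array. In RNA of a whole culture, fewer cells expressing a gene and less RNA per cell cannot be told apart.

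**Figure D1:**
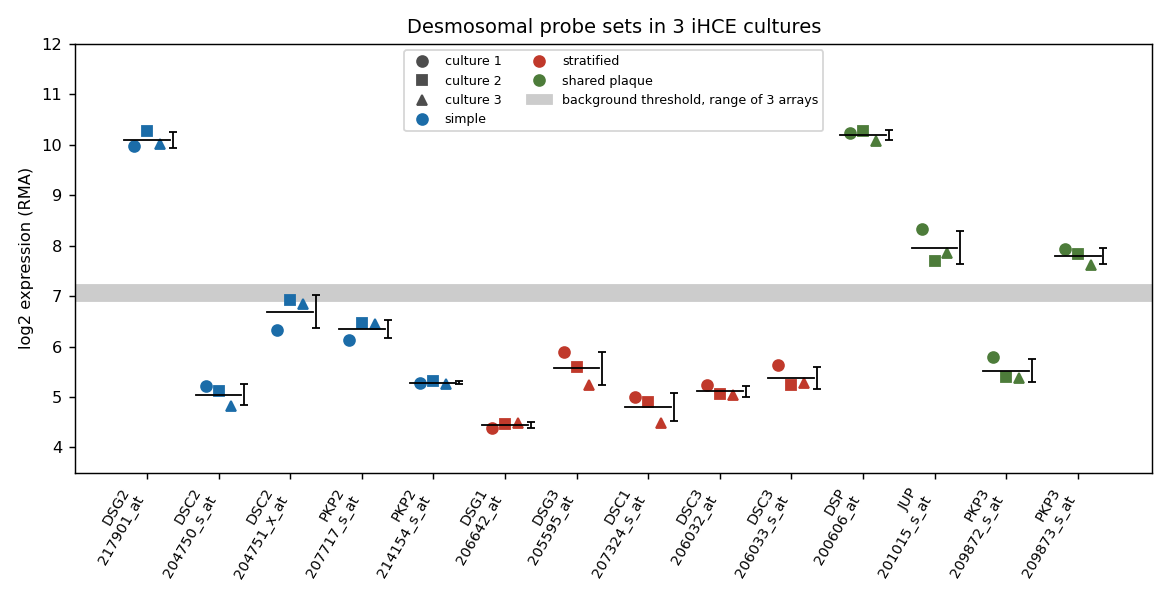
Log2 expression (RMA) of each of the 14 probe sets of the desmosomal genes in cultures 1 (circles), 2 (squares) and 3 (triangles), with the mean (line) and SD (bar, n = 3). The gray band spans the background thresholds of the 3 arrays, and the probe sets of *DSG2*, *DSP*, *JUP* and the brighter one of *PKP3* lie above it in all cultures.

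*DSG2*, the desmoglein found in all desmosome-bearing tissues, was the cadherin that stood above background. Its probe set read 9.98, 10.27 and 10.02 in cultures 1, 2 and 3, with a mean of 10.09 ± 0.16 (SD, n = 3). The 3 cultures lay close together, and each was at least 2.80 log2 units above its own threshold. *DSG1*, which encodes the desmoglein of upper epidermal layers and the target of pemphigus foliaceus antibodies, read 4.38, 4.46 and 4.49. *DSG3*, the desmoglein of basal layers and mucous membranes and the target of pemphigus vulgaris antibodies, read 5.89, 5.59 and 5.23. Both lay below the threshold in each culture, at a mean distance from it of -2.63 ± 0.16 log2 units for *DSG1* and -1.50 ± 0.42 for *DSG3* (SD, n = 3 for both). *DSG1* and *DSC3* are among the genes of largest ratio that the study listed from these arrays, so their low levels are not independent evidence of a direction.

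In the genome the desmosomal cadherins form a single cluster on chromosome 18, and *DSG2* lies at its edge. In the RefSeq annotation the protein-coding genes followed each other in the order *DSC3*, *DSC2*, *DSC1*, *DSG1*, *DSG4*, *DSG3* and *DSG2*, and all but *DSG4* were measured. *DSG2* was the 1 gene of the 6 measured that was above background. Its neighbors outside the cluster, the transthyretin gene *TTR* at 7.06, 6.98 and 6.71 and the galactosyltransferase gene *B4GALT6* at 4.32, 4.62 and 4.61, were not above background on every array. At the other end the N-cadherin gene *CDH2* read 6.30, 5.64 and 6.11 and was not above background either.

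The upstream sequences of the desmoglein genes are shown because *DSG2* and its neighbors *DSG1* and *DSG3* lay on opposite sides of the threshold. Each line gives the 150 bases before the annotated start in RefSeq on build GRCh38.p14, read along the plus strand, which is the strand of all 3 genes. Capitals mark a run of 20 bases that *DSG1* and *DSG3* have in common and, in *DSG2*, the GC box GGGCGG.
DSG1, chr18:31318010-31318159: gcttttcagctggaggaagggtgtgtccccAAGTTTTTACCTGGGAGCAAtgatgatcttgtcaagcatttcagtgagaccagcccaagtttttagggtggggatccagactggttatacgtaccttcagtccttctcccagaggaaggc
DSG3, chr18:31447591-31447740: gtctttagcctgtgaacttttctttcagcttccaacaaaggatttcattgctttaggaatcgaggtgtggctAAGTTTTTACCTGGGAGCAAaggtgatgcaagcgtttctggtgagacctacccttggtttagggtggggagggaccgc
DSG2, chr18:31498027-31498176: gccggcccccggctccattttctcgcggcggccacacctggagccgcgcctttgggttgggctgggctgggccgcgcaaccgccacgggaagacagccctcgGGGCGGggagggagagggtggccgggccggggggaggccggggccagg

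Among 35116 upstream windows of 250 bases in the RefSeq table, the run of 20 bases occurred on either strand in 2, those of *DSG1* and *DSG3*. It began at base -120 relative to the start of *DSG1* and at base -78 relative to that of *DSG3*. Between windows of any other 2 members the longest run in common was 11 bases. The upstream window of *DSG2* held 26 CpG dinucleotides and 75.2% G and C, against 3 and 48.0% for *DSG1* and 4 and 42.8% for *DSG3*, with medians over all windows of 11 CpG and 58.0%. The window of *DSP*, a called plaque gene, held 33 CpG. The CpG counts of genes above and at background overlapped, with 18 for *DSC3*, at background, and 13 and 17 for the 2 annotated starts of *JUP*, above background. A GC box (GGGCGG on either strand) was present in the windows of *DSG2*, *DSP*, both starts of *DSC2* and 1 start of *JUP*, and in 42.6% of all windows. A TATAAA motif, searched on both strands, was present in none of the 10 windows of the members and in 10.7% of all windows. *PKP2* and *PKP3* were not matched in this table. These matches describe the letters and were not tested against expression.

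None of the 3 genes of the desmocollins, the partners of desmogleins in the junction, was above background. *DSC2*, the desmocollin of simple epithelia, differed between its 2 probe sets. Its brighter probe set read 6.32, 6.93 and 6.84 in cultures 1, 2 and 3, so that it passed the threshold in culture 2 alone and by 0.02 log2 units. Its mean distance from the threshold was -0.38 ± 0.39 (SD, n = 3), a distance no larger than the spread of the cultures. That probe set carries the suffix _x_at, given to sets whose probes can bind other transcripts, and the other probe set of *DSC2* read 5.21, 5.12 and 4.81, below the threshold in each culture. With the threshold at the 90th percentile the mean distance of the brighter set was 0.18, and it did not pass the test described below (limma, adjusted p = 0.30). *DSC2* was therefore not resolved from background.

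*DSC1* and *DSC3*, the desmocollins of stratified epithelia, were at background throughout. *DSC1*, which accompanies the upper layers of the epidermis, read 5.00, 4.90 and 4.48. *DSC3*, which accompanies the basal layers, read 5.63, 5.23 and 5.28 with the brighter of its 2 probe sets and 5.23, 5.06 and 5.05 with the other. The 5 probe sets of the 4 stratified genes ranged from 4.38 to 5.89 over all arrays, and their distances from the threshold ran from -2.74 to -1.20 log2 units.

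Of the plaque genes 3 of 4 were above background and of the cadherins 1 of 6, beside 44.5% of all genes, a difference that was not tested. It rested on *JUP* and *PKP3*. With the highest value of the organ genes as the threshold, *DSP* alone of the plaque genes and *DSG2* alone of the cadherins remained above it. *DSP*, the link to the keratin filaments, read 10.23, 10.27 and 10.08 with a mean of 10.19 ± 0.10 (SD, n = 3). *JUP*, which encodes plakoglobin, a relative of β-catenin shared with adherens junctions, read 8.32, 7.70 and 7.86. *PKP3*, a plakophilin of most epithelia, read 7.93, 7.83 and 7.62 with its brighter probe set. *DSP* varied little, *JUP* was higher in culture 1 than in the others, and *PKP3* was above its threshold by 0.40 log2 units in the lowest case. The second probe set of *PKP3* read 5.79, 5.40 and 5.37, below the threshold in each culture, and the mean of both sets was not above background. *PKP2*, the plakophilin of simple epithelia and heart, read 6.13, 6.46 and 6.44 with its brighter set and 5.28, 5.31 and 5.26 with the other. It was not above background on any array, by -0.72 ± 0.26 log2 units for the brighter set.

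The distance of each probe set from the threshold was tested with limma across all 22215 probe sets (one-sided, Benjamini-Hochberg adjusted), in which 33.4% of all probe sets passed at an adjusted p under 0.05. The same 4 genes passed, and 0 of the 5 stratified probe sets had an unadjusted p under 0.05 in limma. Limma used the same values and thresholds as the calls, so this outcome and the signs below follow largely from them. The fit gave every member probe set the same pooled error, 0.147 log2 units, and so did not reflect the spread of each one. It is no independent support for the calls. The 4 genes lay above the threshold by means of 3.02 ± 0.30 for *DSG2*, 3.12 ± 0.25 for *DSP*, 0.89 ± 0.31 for *JUP* and 0.72 ± 0.28 for *PKP3* (log2, SD, n = 3), each positive in 3 of 3 cultures. Their adjusted p-values in limma ran from 1.6e-98 for *DSP* to 1.5e-06 for *PKP3*. Subtracting a threshold from every probe set of an array gives all of them its error in common, so these p-values are too small. With the mean of the 3 thresholds subtracted instead, a fit added after the data were seen, the limma adjusted p was 7.8e-08 for *DSG2*, 4.4e-08 for *DSP*, 0.00044 for *JUP* and 0.00021 for *PKP3*. That fit treats the mean threshold as known, so its p-values also leave out the error of the threshold. With the highest panel value as the threshold, exceeded on every array by 14.7% of all genes, *JUP* and *PKP3* fell below it, at -0.97 and -1.14 log2 units. *DSG2* and *DSP* remained above it. On each array that value was the one of *MBP*, at 8.34, 9.26 and 9.20, a panel gene that was itself above background at the main threshold.

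**Figure D2:**
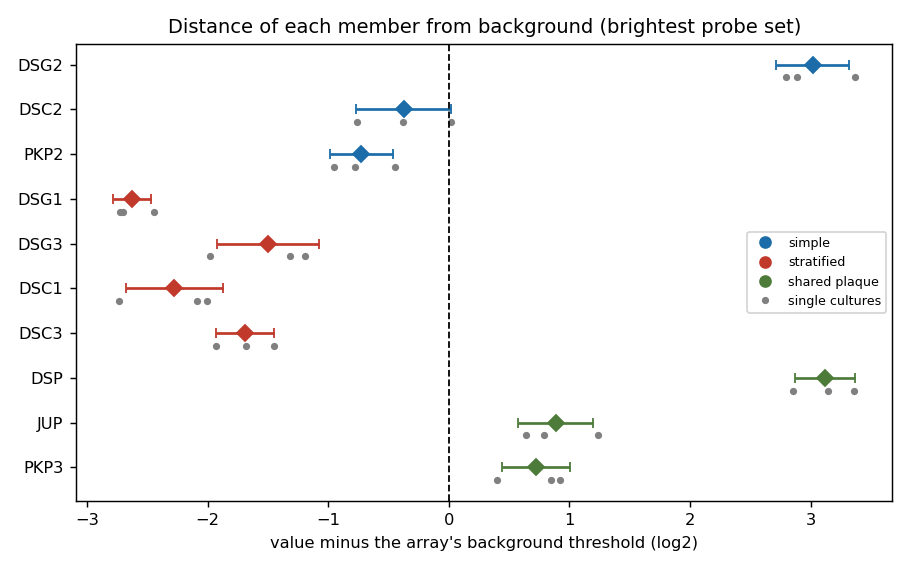
Value minus the background threshold of the same array (log2) for the brightest probe set of each of the 10 genes, as mean and SD over the 3 cultures (diamonds and bars) with the single cultures as dots. *DSG2* and *DSP* lie about 3 log2 units above the threshold (dashed line), *DSC2* spans it, and the 4 genes of stratified epithelia lie between -1.50 and -2.63.

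Set side by side, *DSG2* alone of the 3 genes classed with simple epithelia passed the threshold, and no gene of stratified epithelia passed it. *DSG2* is found in all desmosome-bearing tissues, so its call is not particular to simple epithelia. The mean distances from the threshold were 3.02, -0.38 and -0.72 log2 units for *DSG2*, *DSC2* and *PKP2*. Those of the stratified genes were -1.50 for *DSG3*, -1.69 for *DSC3*, -2.28 for *DSC1* and -2.63 for *DSG1*. Probe sets differ in affinity, and values below the threshold have no order, so these distances are not amounts of RNA and the difference between the classes was not tested. Counting all 7 other members as stratified gave 3 of 7 above background, all of them shared plaque genes.

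Most member probe sets ranged over less than 0.5 log2 units between the cultures. The share with wider ranges was larger than among all probe sets, a difference that was not tested. Of the 14 probe sets 4 ranged over 0.5 log2 units or more, against 15.4% of all 22215 probe sets, namely those of *DSG3* (0.66), *JUP* (0.62), the brighter set of *DSC2* (0.61) and *DSC1* (0.52). Only *JUP* among these was above background on every array, at 8.32 in culture 1 against 7.70 and 7.86. A range as wide as that of *JUP* was found in 8.05% of all probe sets. With 1 array per culture these differences have no replicate and were not tested. When culture 1, 2 or 3 was left out, 0, 3 and 2 of the 14 ranged over 0.5 log2 units or more. A range over 2 cultures cannot exceed that over 3, and the share of all probe sets was not computed for these settings. These counts therefore do not tie the wide ranges to 1 culture. The smallest ranges among the called genes were 0.19 for *DSP*, 0.30 for *DSG2* and 0.31 for *PKP3*, near the median of 0.27 over all probe sets. Relative to its own mean, *DSG2* deviated by -0.11, 0.18 and -0.07 log2 units in cultures 1, 2 and 3, and the shared plaque genes by 0.18, -0.05 and -0.13 on average. *DSG2* was highest in culture 2. The plaque genes were highest in culture 1 on average and through *JUP* and *PKP3*, whereas *DSP* was highest in culture 2.

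**Figure D3:**
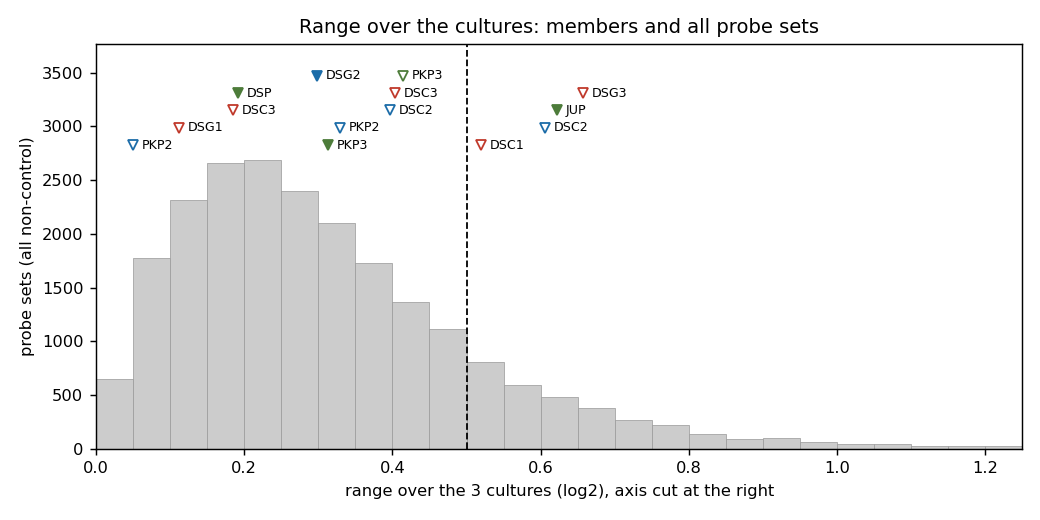
Histogram of the range over the 3 cultures (highest minus lowest, log2) for all probe sets other than controls, with the 14 desmosomal probe sets as triangles above it, filled where the probe set was above background on every array and placed at arbitrary height. To the right of the dashed line at 0.5 lie *DSG3*, *JUP*, *DSC2* and *DSC1*, of which *JUP* is filled.

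Further components of the desmosome were divided between expression and background in a similar share to all genes, with 3 of 7 measured above background. Periplakin (*PPL*), a plakin that cross-links the plaque to keratin filaments, read 9.65, 9.61 and 9.40. *PKP4*, a relative of the plakophilins found also in adherens junctions, read 8.37, 8.88 and 8.80, and kazrin (*KAZN*), a partner of periplakin, read 8.28, 8.82 and 8.34. These 3 were above background with their brightest probe set and at background with their other probe sets where they had any. *PKP1*, the plakophilin of suprabasal layers of stratified epithelia, read 5.87, 5.65 and 5.38. The envoplakin gene *EVPL*, whose product dimerizes with periplakin, read 6.92, 6.56 and 6.33, and the corneodesmosin gene *CDSN* read 6.62, 5.96 and 6.18. All 3 were below the threshold in each culture. *PERP*, a membrane protein of desmosomes and a target of p53, was the most variable gene of the list, at 6.33 in culture 1 against 7.34 and 7.60, and exceeded the threshold on 2 of the 3 arrays. *PERP* is also among the genes of largest ratio that the study listed from these arrays.

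The filaments and junctions that work with desmosomes differed in how many of their genes were above background. Among keratins of simple epithelia 4 of 5 were above background, including *KRT7*, *KRT18* and *KRT19*, and *KRT20* was not. Among keratins of stratified epithelia 1 of 11 was, namely *KRT10*, and *KRT1*, *KRT12* and *KRT13* were not. The medians of the genes' mean distances from the threshold were 3.34 and -1.56 log2 units for these 2 lists, beside -0.10 for all genes. Of 5 adherens junction genes 4 were above background, with E-cadherin (*CDH1*) at 11.04, 11.09 and 10.93, P-cadherin (*CDH3*) at 10.22, 10.88 and 10.77 and α-catenin (*CTNNA1*) at 11.70, 11.61 and 11.88, while *CDH2* was not. These calls rest on the brightest probe set of each gene. *CDH1*, *CTNNA1* and *KRT7* each also had a probe set below the threshold in each culture. That of *CDH1* read 5.04, 4.95 and 5.02 in cultures 1, 2 and 3. β-catenin (*CTNNB1*), the counterpart of plakoglobin, read 8.04, 8.72 and 8.99 and was lowest in culture 1, where *JUP* was highest. The lists are short, and no share was tested against that of all genes. *KRT3*, *KRT4*, *KRT5*, *KRT12*, *KRT14* and *KRT15*, all in the stratified list, are among the genes of largest ratio that the study listed from these arrays. Their low levels are therefore not independent evidence of a direction.

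**Figure D4:**
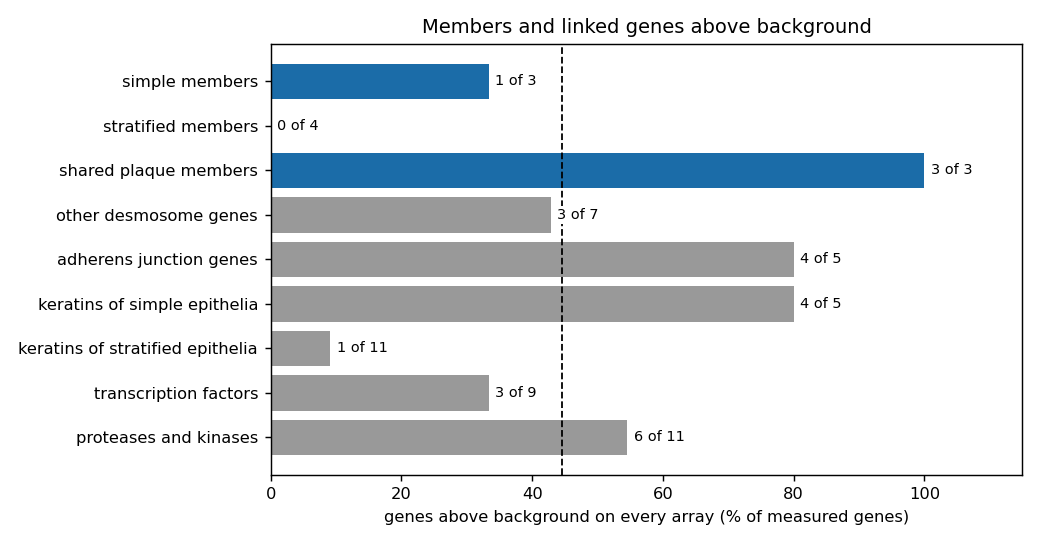
Share of the measured genes above background on every array, in percent, for the 3 classes of desmosomal genes (blue) and 6 lists of linked genes (gray), with the counts beside the bars. The dashed line marks the 44.5% of all genes, and the stratified desmosomal genes (0 of 4) and keratins (1 of 11) have the shortest bars.

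Among measured genes that regulate or cleave desmosomal cadherins, 33.3% of the transcription factors and 54.5% of the proteases and kinases were above background. These shares lay on either side of the 44.5% of all genes, and neither was tested against it. Of 9 measured transcription factors of epithelial differentiation and transition 3 were above background, *GRHL2* (7.39, 7.65 and 7.66), *KLF4* (9.06, 8.52 and 8.77) and the repressor gene *SNAI2* (7.47, 6.94 and 7.40). *OVOL1*, *PRDM1* and *SNAI1* were not above background. Of 11 proteases and kinases 6 were, among them *ADAM9*, *ADAM10* and *ADAM17*, membrane proteases that shed the outer part of cell surface proteins including *DSG2*, at means of 9.68, 9.52 and 8.63. Of the kallikreins, a family that degrades desmosomes in shedding skin, *KLK5* was above background at 8.77, 8.78 and 8.83, whereas *KLK7* and *KLK14* were not. The kinase gene *PRKCA* was not above background either. *SNAI2* was close to the threshold in culture 2, at 6.94 against 6.91. *KLF4*, *ADAM10* and *ADAM17* were called by their brightest probe set and each also had a set below the threshold in each culture.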

How the data were processed

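Total RNA from 3 iHCE culture batches was hybridized to HG-U133A arrays, 1 per batch. The authors computed the deposited log2 values by RMA (R 2.8.0 per the submitters' processing notes), which corrects the background, equalizes the arrays and compresses low values. For the study's own analysis the methods describe culture and tissue arrays normalized together, on a custom gene definition. The deposited table is by the manufacturer's probe sets, and whether it comes from that joint run is not stated. Arrays have no counting depth, and their number limits the precision.

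Of 22283 probe sets 19071 named 1 gene in the platform annotation, with symbols updated through RefSeq (GRCh38.p14, names and promoters only). 1043 named several and 2169 were not listed. Python 3.11.15, pandas 2.3.3, R 4.3.3 and limma 3.58.1 were used, and the limma step was tested on simulated data. Of 68 panel genes 59 were measured and 2 were above background. Named genes were all members, the other desmosome genes and, from each linked list, up to 3 genes above and 3 not above background in alphabetical order, with *CTNNB1*, *KLK5*, *TTR*, *B4GALT6* and the cell type markers added afterwards. The members and lists were chosen with earlier results of these data known. Alternatives were 3 other thresholds, the mean over probe sets, leaving out _x_at and _s_at sets, quantile normalization, leaving out each culture, a limma call, limma with trend and robust settings, a range of 1 log2, wider classes and, added after the data were seen, a mean threshold.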

Additional observations from a re-analysis of the deposited data

How the results depend on the processing

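*DSG2* and *DSP* were above background in all 9 alternatives of threshold, probe set, normalization and replicate, and no gene of stratified epithelia was in any of them. The highest panel value, that of *MBP*, was exceeded on every array by 14.7% of all genes. With it the counts fell to 2 member genes, 1 shared plaque gene, 2 member probe sets above background and 2 by the limma test. *JUP* then stood at -0.97 and *PKP3* at -1.14. Without _x_at and _s_at probe sets 5 of the 10 genes were measured, since *JUP* and *PKP3*, among others, have such sets alone. This left 2 member genes, 1 shared plaque gene and 2 probe sets above background. The share of all 8371 genes then measured was 41.5%, so the members again lay near it. At this setting 1 probe set had a range of 0.5 log2 or more. With the mean over probe sets *PKP3* was not above background. With the highest panel value, and likewise without _x_at and _s_at sets, *DSP* alone stood for the plaque, with deviations of 0.04, 0.08 and -0.12 in cultures 1, 2 and 3. Counting all 7 others as stratified gave 3 genes in that class, as its construction implies. At the 90th percentile *DSC2* turned to 0.18 above the threshold, not past the test. The number of probe sets with a range of 0.5 log2 or more cannot rise when a replicate is left out. It was then between 0 and 3, with 0 without culture 1, and it was 0 at 1 log2. With limma the number of member probe sets past the test was 4 in every other alternative run. No stratified gene was above background, so a shift of that class could be given only over all its measured genes. Simple minus stratified, over all measured genes of both classes, was -0.41, 0.18 and 0.23 in cultures 1, 2 and 3. Of these genes *DSG2* alone was above background, so the difference rests mostly on values at background. Against the 3 called genes of all 7 others, *DSG2* differed by -0.29, 0.23 and 0.06. Values near the threshold, such as those of *DSC2*, cannot be resolved with 3 arrays.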
